A study of Arabidopsis thaliana with 8 samples.

Results

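The expansin genes of Arabidopsis thaliana were followed in roots and shoots of seedlings grown with or without selenate. The genes were the probe sets listed for 1 gene whose symbol is EXPA or EXLA and a number, with a signal of at least 100 on at least 2 of the 8 arrays. There were 10 such genes, EXPA4, EXPA7, EXPA8, EXPA9, EXPA15, EXPA18, EXPA20, EXLA1, EXLA2 and EXLA3, among 16053 probe sets that passed the same signal filter. Another 3, EXPA16, EXPA21 and EXPA24, had a probe set of their own but missed the filter. Nearest to it was EXPA16, with 1 array above 100 (145 on selenate shoot 2) and signals of 30.9 to 97.6 on the other arrays. Just inside it was EXLA3, which passed on the 2 selenate root arrays alone, with signals of 456 and 444. The signals of EXPA21 and EXPA24 lay between 2.6 and 45.1. EXPA22, EXPA23, EXPA25 and EXP26 share probe sets listed for several genes and were not analysed here.

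Plants of ecotype Ws (Wassilewskija) were 10 days old and had grown upright on half-strength Murashige and Skoog (MS) medium, either plain or with 40 µM selenate, the selenium analogue of sulfate. Total RNA of roots and of shoots was hybridised to Affymetrix arrays, with 2 arrays for each of 4 groups: roots without selenate (control roots), roots with it (selenate roots), and the shoots of either medium. Nothing in the labels says whether both arrays of 1 group hold RNA of different plants, so p-values reflect only how far these samples spread, and that spread may be technical. Groups were taken from sample titles, although the free-text descriptions of the shoot samples speak of roots.

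The organs matched their titles by marker signals. All 6 tested green-tissue genes were higher in control shoots than in control roots, with log2 differences of 4.61 (LHCB4.1) or more, and the root marker PYK10 had one of -1.24. Replicates differed by a standard deviation of 0.26 to 0.28 (log2) in roots and 0.41 to 0.51 in shoots. The ratio of 3' to 5' signal of the GAPDH control probe sets, a measure of RNA integrity, was 0.783 to 0.868 on root arrays. It was 2.03 and 10.4 on control shoots 1 and 2, and 7.34 and 2.95 on selenate shoots 1 and 2, so RNA integrity and organ cannot be told apart. The actin ratio was 9.07 and 5.42 on control roots 1 and 2, 8.17 and 4.74 on selenate roots 1 and 2, and 21.2 to 55.9 on shoot arrays. The ubiquitin ratio was 2.12 to 2.75 on root arrays and 4.38 to 6.11 on shoot arrays. In roots both ratios were higher on replicate 1 than on replicate 2 of each group. The number of arrays limits the precision of all values.

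Expansins are secreted proteins that loosen the cell wall so that a cell under turgor can enlarge, and they do so without cutting the wall polymers. The alpha-expansins (EXPA) act best at acid pH and are the family members tied to acid growth. The expansin-like A proteins (EXLA) share the expansin fold, but a wall-loosening activity has not been settled for them. EXPA7 and EXPA18 are known for their transcription in root hair cells around the time the hair emerges, and they serve as markers of those cells. The members thus fall into root hair alpha-expansins, other alpha-expansins and expansin-like genes.

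In roots, 3 of the 10 genes changed with selenate: EXLA3 and EXLA1 rose, and EXPA7 fell (limma, adjusted p under 0.05). Over all probe sets tested, 5.71% were called in this comparison, 3.35% as higher and 2.37% as lower. The median log2 change of the 10 genes was 0.12 and that of all probe sets tested was -0.02. Because EXLA3 passed the signal filter through selenate roots alone, these counts describe the genes and do not rank the family against others. With root arrays alone in the fit 5 were called, EXPA9 as higher and EXPA18 as lower in addition, where 13.4% of all probe sets tested were called. The changes lay in opposite directions, up for EXLA3 and EXLA1 and down for EXPA7.

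EXPA7 (AT1G12560), a root hair alpha-expansin, had signals of 533 and 459.5 in control roots and 196 and 221 in selenate roots. In shoots its signals were 16.4 and 8.3 without selenate and 32.0 and 38.7 with it, all below the signal filter. Each control root array lay above both selenate root arrays, in a comparison where 53.5% of all probe sets tested did not overlap, in either direction. Every root array lay above every shoot array. The fall in roots was 2.23-fold, a log2 change of -1.16 ± 0.22 SE (limma adjusted p = 0.0138). That call was lost with any 1 of the 4 root arrays left out (limma adjusted p between 0.0937 and 0.189, log2 change -1.26 to -1.06). Reducing the pseudocount to 1% of the scaled mean ended it as well (adjusted p = 0.0783).

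EXPA18 (AT1G62980), the other root hair alpha-expansin, had signals of 735 and 604 in control roots and 262 and 235 in selenate roots. Both selenate root arrays again lay below both control arrays, a lack of overlap that 53.5% of all probe sets tested share. Shoot signals were 59.6 and 3.3 in controls and 4.6 and 28.8 with selenate, so that shoot replicates of this gene differed many times over at a level below the filter. Its log2 change in roots was -1.34 (95% interval -2.40 to -0.28) and did not pass the test over all probe sets (limma adjusted p = 0.178). The test shares 1 spread over all 4 groups, to which the shoot arrays contribute. With root arrays alone in the fit the change was the same and EXPA18 was called (limma adjusted p = 0.000667), as it was after leaving out shoot control 1 (0.0190), shoot control 2 (0.0173) or both shoot arrays with the higher GAPDH ratio (0.00168), and after raising the pseudocount 4-fold (0.00851).

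**Figure D1:**
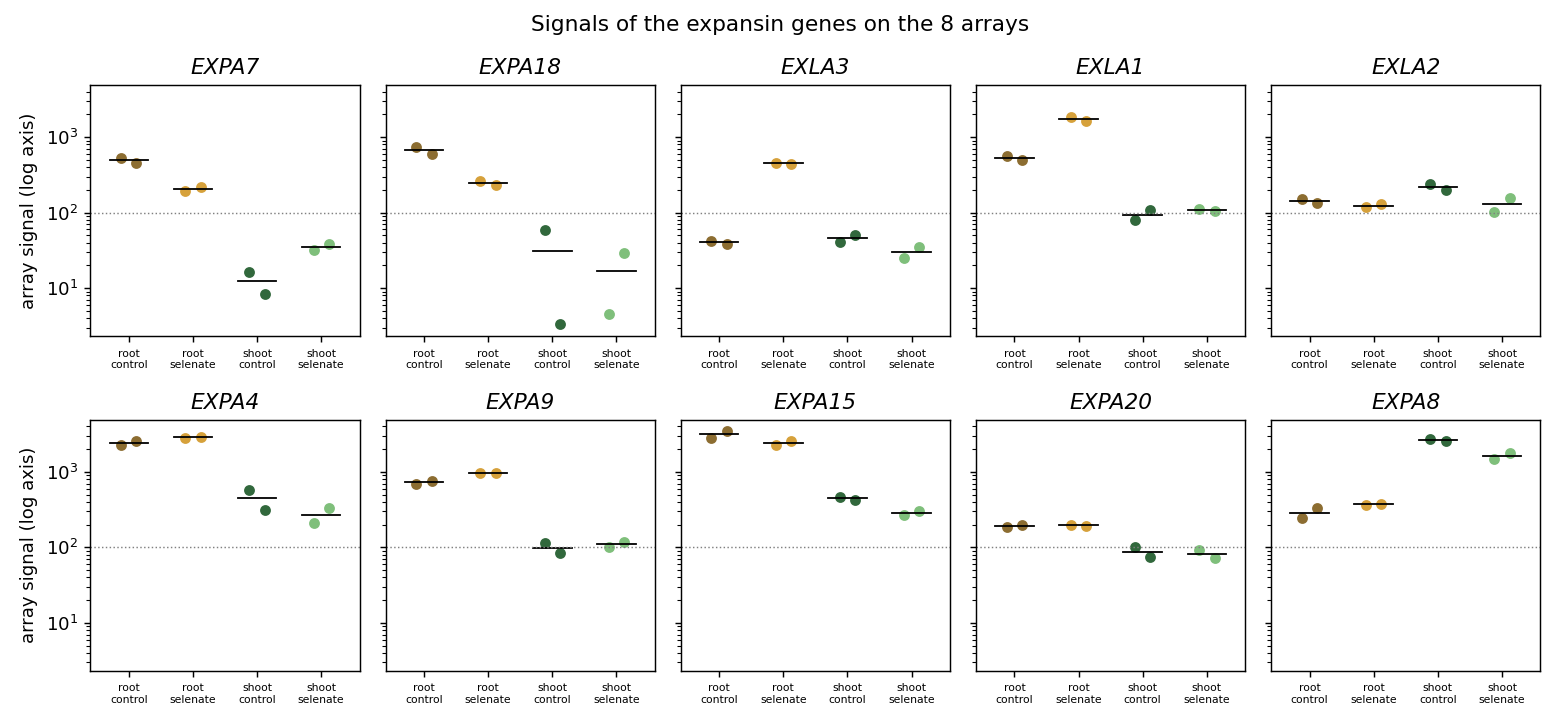
Array signal (log axis) of the 10 expansin genes in the 4 groups; dots are single arrays, black bars are means of 2 arrays and the dotted line is the signal filter of 100. EXPA7 and EXPA18 are lower in selenate roots than in control roots, EXLA3 and EXLA1 are higher there, and EXPA8 has its highest signals, 2572 and 2739, in control shoots.

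Whether root hair transcripts fell more widely could be followed in few genes. Of 37 other root hair loci, 2 had a probe set of their own that was listed here, and both were tested. Neither passed the test in roots. In whole roots, fewer cells of a type and less RNA per cell cannot be told apart.

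EXLA3 (AT3G45960), an expansin-like gene, rose most among the 10. Its signals were 42.6 and 38.2 in control roots and 456 and 444 in selenate roots, and between 25.0 and 50.7 on the 4 shoot arrays. Only the selenate roots stood above the filter. Below it, both selenate shoot arrays (25.0 and 34.6) lay under the control arrays of both organs, and the control groups of roots and shoots overlapped. The rise in roots was 7.26-fold on the log2(signal + 25) scale, a log2 change of 2.86 ± 0.22 SE (limma adjusted p = 6.77e-05). It stayed called whichever of the 8 arrays was left out, with log2 changes of 2.81 to 2.91 and adjusted p of at most 0.00329 in limma. EXLA3 was in each of these fits because the filter was set on all 8 arrays, and it passed through selenate roots alone. The kept call is therefore a description. A pseudocount 4 times as large gave a log2 change of 1.97, because the signals of control roots are close to it.

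EXLA1 (AT3G45970) is the direct neighbour of EXLA3 on chromosome 3, with 0 protein-coding genes between them in the RefSeq annotation of assembly TAIR10.1. Its signals were 559 and 491 in control roots and 1824 and 1617 in selenate roots. The rise was 3.18-fold, a log2 change of 1.67 ± 0.19 SE (limma adjusted p = 0.000597). Whichever array was left out, the change stayed between 1.58 and 1.76 and was called (limma adjusted p of at most 0.0164). On the shoot arrays EXLA1 had signals of 78.9 to 113.

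The third expansin-like gene, EXLA2 (AT4G38400), is located on chromosome 4. EXLA2 is known from work on the response of Arabidopsis to the fungus Botrytis cinerea. Its signals were 152 and 133 in control roots and 119 and 129 in selenate roots. The log2 change was -0.17 (95% interval -0.69 to 0.36; limma adjusted p = 0.886). Thus 2 of the 3 expansin-like genes rose in roots, and the interval of EXLA2 ends well below the rise of either.

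The other alpha-expansin genes, EXPA4, EXPA8, EXPA9, EXPA15 and EXPA20, were not called in roots, with log2 changes of -0.37 to 0.41 and limma adjusted p of 0.343 to 0.989. EXPA9 (AT5G02260) had signals of 691 and 767 in control roots and 974 and 979 in selenate roots. Its arrays did not overlap, which 53.5% of all probe sets tested share in this comparison, and the log2 change of 0.41 had a 95% interval of -0.0045 to 0.83. It was called with root arrays alone in the fit (limma adjusted p = 0.0429). EXPA15 (AT2G03090) had signals of 2818 and 3467 in control roots and 2272 and 2566 in selenate roots, with a log2 change of -0.37 (interval -0.74 to 0.01). EXPA4 (AT2G39700) went from 2303 and 2575 to 2795 and 2911. Both of these genes therefore shifted by less than the test could separate from replicate spread. EXPA20 (AT4G38210) gave nearly the same signal on all 4 root arrays, between 188 and 201.

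**Figure D2:**
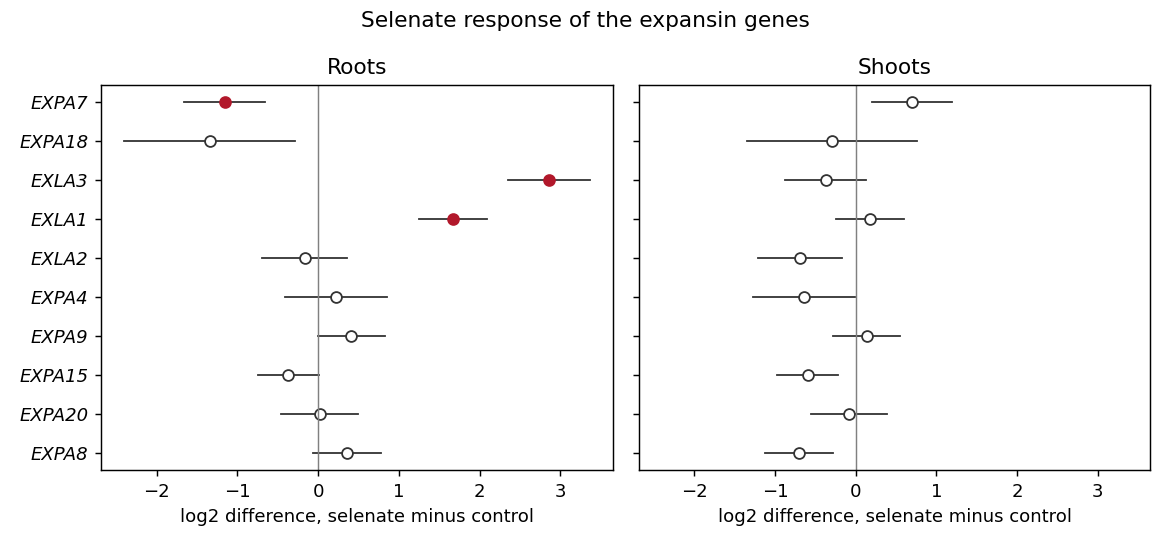
Log2 difference between selenate and control for each of the 10 genes in roots (left) and shoots (right); bars are 95% intervals from limma and filled points have an adjusted p under 0.05. In roots EXLA3 (2.86), EXLA1 (1.67) and EXPA7 (-1.16) are filled, and in shoots no gene is.

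Beta-expansins and other wall genes give the setting of these changes. EXPB1, EXPB3 and EXLB1, the tested genes of the other expansin subfamilies, had log2 changes of -0.27, -0.55 and -0.26 in roots, and 0 of 3 were called (limma; at an unadjusted p under 0.05 also 0). With root arrays alone EXPB3 was called (limma adjusted p = 0.0222), as it was without both shoot arrays with the higher GAPDH ratio (0.0293). Over all probe sets tested, 5.71% were called in roots. The 7 tested XTH genes encode enzymes that cut and rejoin xyloglucan. Among them XTH20 was called as higher (log2 change 1.01, limma adjusted p = 0.0219) and 0 as lower. The 7 log2 changes ran from -0.89 to 1.01, with a median of -0.33. Among 7 tested genes matched by wall-gene symbols, CSLC04, which encodes a xyloglucan backbone synthase, was called as higher (1.31, limma adjusted p = 0.00503). Of these 0 were called as lower, and the log2 changes ran from -0.59 to 1.31, with a median of 0.05. Both calls ended with any 1 of the 4 root arrays left out (limma adjusted p 0.118 to 0.223 for XTH20 and 0.0536 to 0.0684 for CSLC04), and that of XTH20 also with the smaller pseudocount (0.0672).

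Green-tissue transcripts also moved between the root groups. Their summed signal over 6 genes was 2031 and 2516 in control roots and 1211 and 1367 in selenate roots. In the test 3 of 6 fell, PSAE-1 (-0.97), LHCB4.1 (-0.69) and LHCB4.2 (-1.82 on the log2 scale). Over all probe sets tested, 2.37% were called as lower in roots. LHCB4.1 lost its call without any 1 root or selenate shoot array (limma adjusted p 0.0689 to 0.417), and PSAE-1 without root control 1 (0.126) or root selenate 1 (0.108). The call of LHCB4.1 also ended with the smaller pseudocount (limma adjusted p = 0.0519), no filter (0.0775) and no variance trend (0.0786). It ended as well with median centring (0.0610) and quantile normalization within each organ (0.0501). The lowest root signal of a green-tissue gene was 20.7, for LHCB4.2 on root selenate 1, which is below the signal filter. In control shoots the summed green signal was 124207 and 126304, and the signals of EXPA7 were 8.3 and 16.4. Between the root groups PYK10, the root marker, differed by 0.08 (log2), with signals of 16743 to 18793 over the 4 root arrays. The part of the green-tissue shift in the fall of EXPA7 and in the other root values was not tested.

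In shoots 0 of the 10 genes passed the test with selenate (limma), against 1.86% of all probe sets tested. At an unadjusted p under 0.05 there were 5, of which 1 was higher and 4 lower, where 14.5% of all probe sets tested met this level. EXPA8 (AT2G40610) had signals of 2739 and 2572 in control shoots and 1460 and 1795 in selenate shoots. These arrays did not overlap, as for 36.1% of all probe sets tested, and the log2 change was -0.70 (95% interval -1.13 to -0.28; limma adjusted p = 0.107). EXPA15 went from 465 and 424 to 271 and 302, a log2 change of -0.59 (interval -0.97 to -0.22; limma adjusted p = 0.126). Both genes had lower signals on each selenate shoot array, with intervals that left out 0, and neither passed after adjustment over all probe sets tested. These intervals rest on a spread shared with the root arrays, whose replicates differed less. With shoot arrays alone in the fit 3 of the 10 genes had an unadjusted p under 0.05 (limma), as did 1318 of 16053 probe sets.

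EXLA2 had signals of 243 and 198 in control shoots and 101 and 157 in selenate shoots, with a log2 change of -0.69 (limma adjusted p = 0.202), and of -0.42 without shoot selenate 1. EXPA4 had 575 and 314 in control shoots and 210 and 331 with selenate, and these arrays overlapped. Its log2 change was -0.64 (limma adjusted p = 0.335). Without shoot control 2, which has the highest GAPDH ratio, it was -1.05 (adjusted p = 0.0442), whereas leaving out shoot control 1 or shoot selenate 1 gave -0.23 and -0.34 (limma adjusted p = 0.646 and 0.766). It was called without both shoot arrays with the higher ratio (-0.75, limma adjusted p = 0.0334), the lone array of each shoot group then being assumed to vary like the others. The single gene with higher signals on both selenate shoot arrays was EXPA7, at 0.70 (interval 0.20 to 1.20; limma adjusted p = 0.174), from a level below the filter, where 4 times the pseudocount gave 0.27 and that of 1% of the scaled mean 1.25. EXLA3 (-0.37), EXPA18 (-0.29), EXPA20 (-0.08), EXPA9 (0.14) and EXLA1 (0.18) had log2 changes whose 95% intervals all held 0. For EXPA18, leaving out shoot control 1 gave 0.50 and leaving out shoot control 2 gave -1.08, its shoot replicates lying far apart.

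The other wall and root hair genes gave 1 call in shoots. GH9C1, an endoglucanase gene of the root hair list, fell, with a log2 change of -1.05 (limma adjusted p = 0.0440), from signals of 31.5 and 43.6 to 5.4 and 4.8, all below the filter. The call ended in 7 of the 8 fits that left out 1 array, all but the one without shoot control 1 (adjusted p up to 0.138), with 4 times the pseudocount (0.258), with no filter (0.0776), without both shoot arrays with the higher GAPDH ratio (0.0720) and with shoot arrays alone (0.409). EXPB3 and EXLB1 had log2 differences of -0.93 and -0.78 (limma adjusted p = 0.129 and 0.111). Without shoot control 2 EXPB3 was called (-1.30, adjusted p = 0.0198), as it was without both shoot arrays with the higher GAPDH ratio (0.0244), whereas without shoot control 1 it was not (-0.56, limma adjusted p = 0.239).

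The selenate response itself differed between the organs for 3 of the 10 genes, where 3.70% of all probe sets tested were called. Over all probe sets, 1.42% were called as higher and 2.28% as lower in shoots. EXLA3 passed the signal filter through selenate roots alone, so this count too is a description. The response in shoots minus that in roots was -3.23 ± 0.32 SE for EXLA3 (log2, limma adjusted p = 0.000578) and -1.49 ± 0.26 for EXLA1 (adjusted p = 0.0152). For EXPA7 it was 1.86 ± 0.31 (adjusted p = 0.0114). The first of these held whichever array was left out (limma adjusted p of at most 0.0100). That of EXPA7 was lost with any 1 root array left out (adjusted p 0.0604 to 0.101), and that of EXLA1 likewise (0.0680 to 0.106) or without shoot selenate 2 (0.0510). For EXPA7 the size was 1.22 with 4 times the pseudocount and 2.48 with that of 1% of the scaled mean, and for EXLA3 it was -2.14 and -3.88. EXPA8 had a difference of -1.07 (limma adjusted p = 0.0651), called with 4 times the pseudocount (0.0482) and with quantile normalization over all arrays (0.0480).

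Among control plants, 7 of the 10 genes were lower and 1 was higher in shoots than in roots, where 63.2% of all probe sets tested were called, 37.5% as lower and 25.7% as higher. The 3 genes that passed the filter through root arrays alone, EXPA7, EXPA18 and EXLA3, bear on this count, so it is a description. The median log2 difference was -2.34 for the 10 genes and -0.21 for all probe sets tested. Quantile normalization over all arrays moved the latter to -0.08 and median centring to -0.07. The direction of the 8 calls was the same under both.

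The root hair alpha-expansins had differences of -3.81 ± 0.22 SE for EXPA7 and -3.82 ± 0.47 for EXPA18 (log2; limma adjusted p = 5.65e-07 and 8.09e-05), or 14.0-fold and 14.1-fold. Their shoot signals lie below the pseudocount or near it. Raising the pseudocount 4-fold gave -2.41 and -2.58, beside -2.57 for EXPA15 in the same fit, and lowering it to 1% of the scaled mean gave -4.89 and -4.86. Leaving out shoot control 1 gave -4.61 for EXPA18, and leaving out shoot control 2, alone or together with selenate shoot 1, gave -3.03. The order of these genes' levels was control roots, then selenate roots, then both shoot groups; for EXPA18 the shoot groups overlapped.

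Of the other alpha-expansins, EXPA15, EXPA9 and EXPA4 were 6.71-fold, 6.15-fold and 5.46-fold lower in control shoots, and EXPA20 was 1.94-fold lower (limma adjusted p = 0.00319 or less for each). EXPA9 had shoot signals of 83.3 to 118 over both shoot groups, which overlapped. EXPA8 ran the other way, 8.68-fold higher in control shoots (log2 difference 3.12 ± 0.19 SE, limma adjusted p = 6.96e-07). Its signals were 241 and 332 in control roots, 366 and 378 in selenate roots, and between 1460 and 2739 on the shoot arrays. The 4 groups of EXPA8 did not overlap, from control roots through selenate roots and selenate shoots to control shoots, and neither step between control and selenate within an organ was called.

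The expansin-like genes parted between the organs. EXLA1 was 4.66-fold lower in control shoots (log2 difference -2.22 ± 0.19 SE, limma adjusted p = 6.45e-06). EXLA2 had a difference of 0.55 (limma adjusted p = 0.0631), called as higher in shoots after quantile normalization over all arrays (0.80, adjusted p = 0.0119), after median centring (0.68, 0.0278), with 4 times the pseudocount (0.40, 0.0449) and without shoot selenate 1 (0.0391), shoot selenate 2 (0.0409) or both shoot arrays with the higher GAPDH ratio (0.0179). EXLA3 had one of 0.11 (95% interval -0.39 to 0.62) at signals below the filter in both organs, and 0.70 after quantile normalization over all arrays (adjusted p = 0.0195). EXPB3, EXPB1 and EXLB1 were lower in control shoots as well, with log2 differences of -2.78, -1.31 and -1.19.

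**Figure D3:**
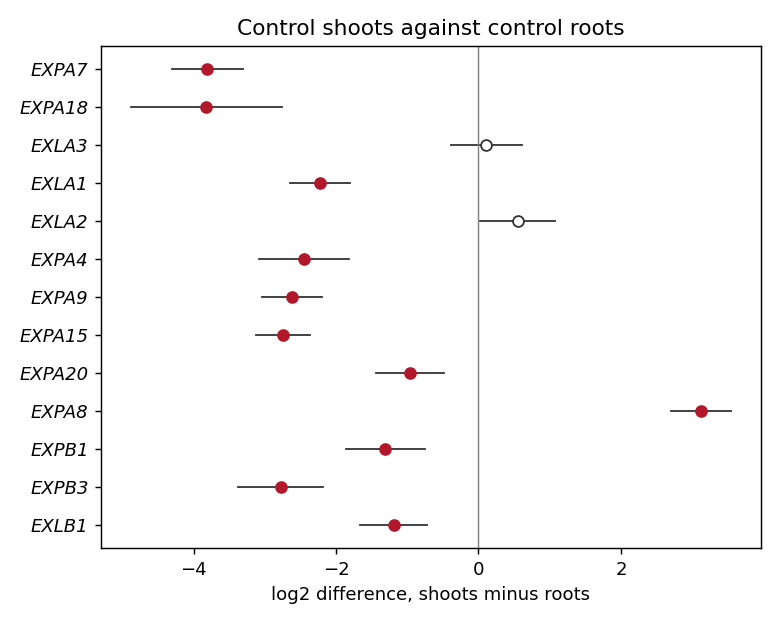
Log2 difference between control shoots and control roots for the 10 expansin genes and 3 genes of the other expansin subfamilies; bars are 95% intervals from limma and filled points have an adjusted p under 0.05. EXPA8 (3.12) is the filled point above 0, and EXPA7 (-3.81) and EXPA18 (-3.82) lie below it.

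Counts of other wall genes called between control organs, 5 of 7 among the XTH genes and among the further wall genes, lay near the 63.2% of all probe sets tested. Of 7 XTH genes 4 were lower in shoots and 1 higher, with log2 differences of -4.28 for XTH19, -4.24 for XTH21, -4.00 for XTH18 and 2.69 for XTH32. Of 7 further wall genes 3 were lower and 2 higher, among them PME61 (2.21), CSLD2 (-1.99), CSLA03 (1.49) and CSLC6 (-0.84, not called without root control 2, limma adjusted p = 0.0912). With 4 times the pseudocount the differences were -3.27 for XTH19, -2.53 for XTH21, -3.18 for XTH18 and 1.22 for PME61, and with that of 1% of the scaled mean -6.12 for XTH21 and 3.06 for PME61. Of the root hair genes 2 of 2 were lower in shoots, where 37.5% of all probe sets tested were called as lower. GH9C1 was at -3.95, and at -2.92 with 4 times the pseudocount. XTH18, XTH19, XTH20, XTH21 and GH9C1 passed the signal filter through root arrays alone, CSLC12 through control roots alone and PME61 through shoot arrays alone. The counts of wall and root hair genes between organs are therefore a description. For the response difference XTH20 and XTH18 were called at -1.56 and -1.53 (limma adjusted p = 0.0220 and 0.0469), the former not with any 1 root array or shoot selenate 2 left out (0.0638 to 0.138), the latter not with any 1 root array or selenate shoot array left out (0.0798 to 0.234), with the smaller pseudocount (0.0739), with no filter (0.0772) or with no variance trend (0.0583).

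Across the 8 arrays the 10 genes fell into recognisable profiles. The highest correlations of log2 signals among them were between EXPA15 and EXPA4 (r = 0.979), EXPA9 and EXPA4 (0.976) and EXPA9 and EXPA20 (0.974), and EXPA7 and EXPA18 correlated at 0.955. EXPA8 ran opposite to EXPA7 (r = -0.977). These values are over 8 arrays that share an organ contrast, which alone gives high correlations, and they are a description.

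Among 1235 other probe sets with a gene symbol, the 5 most like EXLA3 were ORA47 (r = 0.996), CML37 (0.989), STZ (0.981), ARL (0.976) and OPCL1 (0.974). ORA47 and STZ encode transcription factors, CML37 a calmodulin-like protein and OPCL1 a ligase of jasmonate synthesis. Their log2 changes in selenate roots were 5.09, 4.77, 4.95 and 2.86, and that of ARL was 1.15. The 5 genes were chosen for likeness to EXLA3, whose signal was high on the selenate root arrays alone. Their rises there follow from that choice and are a description. EXLA1 was most like PUB24 (r = 0.997), LUL1, FMO, GTR2 and TET8 (0.990), whose fitted log2 changes in selenate roots were 0.46 to 1.16. These too were chosen over the same arrays. No gene among the 5 was shared by these neighbouring genes.

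EXPA7 was most like HIS1-3 (r = 0.992), EULS3, APG8A, UGT73D1 and LBD16 (0.983). HIS1-3 encodes a linker histone variant and LBD16 a transcription factor of lateral root formation. EXPA18 was most like UGT71C2 (r = 0.994), CRK, PRA1.A1, TAAC and TET3 (0.982). For EXPA15 the 5 were LSH5 (r = 0.997), ATG3, AZG1, the root hair gene GH9C1 and BAT1 (0.994), and for EXPA9 they were MMP (0.997), XTH19, SLY2, CP1 and UGT73B4 (0.996). For EXPA4 they were PRA1.B4 (0.996), GSTF4, PGM, UBC20 and PRA1.B1 (0.992), and for EXPA20 ARLA1B (0.994), BPM3, UGT71C5, ALPHA-VPE and SWEET16 (0.990). EXPA8 was most like CAF1 (r = 0.989), CIL, rpl22, EXGT-A3 and CFM3A (0.985). EXLA2 had no close match, with TTN9 at 0.905, HVA22C, GH3.3, TUB6 and ATPMEPCRD (0.843).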

How the data were processed

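Per the submitters' processing notes, the deposited table holds MAS5 values of the 8 arrays, an intensity on a linear scale. No MAS5 version is stated in the labels used here. MAS5 corrects with mismatch probes array by array, which leaves low intensities imprecise. In the deposited table the mean of each array without the highest and lowest 2% was 500.04 to 500.05, which assumes like total signal in both organs. From the 22810 probe sets, 64 controls were left out. Probe sets with a signal of 100 on at least 2 arrays (16053) were tested as log2(signal + 25) in R 4.3.3 by limma 3.58.1. The model gave each group its mean, with a spread shared by all groups and a variance trend (4 residual and 5.12 prior degrees of freedom). Fold changes on this scale understate those of low genes. Benjamini-Hochberg adjustment ran over the whole set of tested probe sets, with calls at an adjusted p below 0.05.

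Names are those of the platform's gene table, brought up to date through RefSeq gene IDs (TAIR10.1); 13513 probe sets were listed for 1 gene. All 10 expansin probe sets carry the plain _at suffix. Of 36 expansin loci 18 had a probe set of their own. PRP39, a pre-mRNA processing gene caught by the wall-gene symbols, was left out. A result for 1 root hair gene is not reported here. The members and lists were chosen with earlier results of these data known. Named were all members, for each the 5 genes of highest Pearson r over the 8 arrays, and the called genes of each list, or the 4 largest. The procedure was tested on simulated data. Replicate numbers are shared by the groups. Deviations of same-numbered arrays correlated at 0.34 between the root groups, -0.48 between the shoot groups and -0.0068 to 0.061 across organs; since the labels tie the numbers to no shared source and the shoot numbers ran against each other, samples were not paired by number.

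Alternatives covered the pseudocount, filter, normalization, variance trend, replicate block and arrays left out.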

Additional observations from a re-analysis of the deposited data

Results flagged for a closer look

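The selenate response differed between shoots and roots, by the test of the difference itself, for 3 expansin genes. Over all probe sets tested, 3.70% were called. EXLA3 had a difference, shoots minus roots, of -3.23 (log2), from 2.86 in roots and -0.37 in shoots. EXLA1 had a difference of -1.49, from 1.67 in roots and 0.18 in shoots. EXPA7 had one of 1.86, from -1.16 in roots and 0.70 in shoots, where its signals lay below the filter of 100. The calls of EXPA7 and EXLA1 were lost with any 1 root array left out. EXLA3 passed the filter through selenate roots alone.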

How the results depend on the processing

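The rises of EXLA3 and EXLA1 in roots and the organ differences of EXPA7 and EXPA18 kept their direction and call in all alternatives run. EXLA3 passed the signal filter through selenate roots alone, and EXPA7 and EXPA18 through root arrays alone. Their kept calls are therefore a description and no independent support. Of the counts of all probe sets called, that in roots was 917, and 2145 with root arrays alone and 2047 without both shoot arrays with the higher GAPDH ratio. In shoots it was 299, and 123 with the replicate block, 745 without those 2 arrays and 0 with shoot arrays alone, where 1318 had an unadjusted p under 0.05 (limma). For the response difference it was 594, and 1358 without those 2 arrays. The expansin genes called were 5 of 10 with root arrays alone and, in shoots, 1 without those 2 arrays. EXPA7 in roots had -1.23 when the pseudocount was 1% of the scaled mean, EXPA18 in roots -1.34 with root arrays alone or without those 2 arrays and -1.14 with 4 times the pseudocount, and EXLA3 between organs 0.70 after quantile normalization over all arrays.

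Over the 8 fits that left out 1 array, the counts ranged from 398 to 1351 in roots, 51 to 631 in shoots, 233 to 1017 for the difference and 8201 to 10399 between organs, and expansin genes called from 2 to 4 in roots, 0 to 1 in shoots and 1 to 4 for the difference. Log2 values ranged from -1.26 to -1.06 for EXPA7 and -1.48 to -1.20 for EXPA18 in roots, 1.70 to 2.01 for the difference of EXPA7, and -1.08 to 0.50 for EXPA18 in shoots. Signs turned, never with a call, for EXPA20 (-0.013 to 0.056 in roots, -0.24 to 0.078 in shoots, -0.26 to 0.056 for the difference), EXPA9 in shoots (-0.038 to 0.32) and EXPB1 (-0.51 to 0.049 in shoots, -0.24 to 0.32 for the difference). The replicate block moved no other count by over 1.5 times and changed no expansin call, but ended those of LHCB4.1 in roots, GH9C1 in shoots and XTH18 for the difference (limma adjusted p = 0.0505, 0.0808 and 0.0713). With shoot selenate numbers crossed, chosen after seeing the data, 390 probe sets were called in shoots and 1024 in roots, and EXLA2 was called between organs (0.0494). Of the 5 genes most like each member, 2 to 5 stayed so under other pseudocounts and scalings. With a filter at a signal of 200, EXLA2 and EXPA20 were not tested. The cause of these shifts was not tested.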
